A study of Mus musculus with 17 samples.

Results

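The CCN proteins are small secreted proteins of the extracellular matrix, and several of their genes, together with Ankrd1, Amotl2 and Ajuba, are textbook targets of the transcriptional coactivators YAP and TAZ, while Srf encodes serum response factor. Their transcripts were followed in total RNA-seq libraries of lung fibroblast cultures from 17 mice. The genes were chosen by symbol as the 5 CCN genes Ccn1 (Cyr61), Ccn2 (Ctgf), Ccn3 (Nov), Ccn4 (Wisp1) and Ccn5 (Wisp2) and the 4 genes Ankrd1, Amotl2, Ajuba and Srf, which make 9 of the 55421 genes in the count table. All 9 were found under their current symbols, and all 9 were among the 10481 genes with more than 10 CPM (counts scaled to the total of the library) in at least 2 libraries. Each is a protein-coding gene, and on GRCm38 (GENCODE M21) they lie at chr3:145646976-145649981 (Ccn1), chr10:24595442-24598683 (Ccn2), chr15:54745702-54754039 (Ccn3), chr15:66891320-66923201 (Ccn4), chr2:163820861-163833146 (Ccn5), chr19:36111961-36120099 (Ankrd1), chr9:102716672-102733418 (Amotl2), chr14:54567472-54577558 (Ajuba) and chr17:46548329-46556175 (Srf). Reads were counted over whole genes, so the parts of a gene are not told apart.

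All mice carried the floxed Ephb4 allele in both copies, which encodes the receptor EphB4, and the Col1a2-CreERT transgene, in which the Col1a2 promoter drives a tamoxifen-inducible Cre in collagen-producing cells. Ephb4 CKO mice received 4-hydroxytamoxifen (1 mg per day for 5 days) from 4 weeks of age and Ephb4 control mice received corn oil. At 6 weeks, either bleomycin (1.2 U/kg), which damages the lung and leads to fibrosis, or PBS was given into the trachea, and fibroblasts were grown to passage 1 in serum-containing medium from lungs taken on day 14. The groups held 4 Ephb4 control PBS, 4 Ephb4 control bleomycin, 5 Ephb4 CKO PBS and 4 Ephb4 CKO bleomycin mice, with 1 library each. In the text a mouse is named by its number within its group, which carries no other meaning.

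CCN proteins bind integrins, matrix and growth factors, and Ccn2 in particular is a classic gene of wound repair and of activated fibroblasts in the lung. YAP and TAZ, which the Hippo kinases keep out of the nucleus, have no DNA-binding domain and act through TEAD factors, which recognise the letters GGAATG. SRF binds the CArG box and works with MRTF cofactors on genes of the contractile cytoskeleton and with the ternary complex factors on immediate early genes, among which several CCN genes are also counted.

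The RefSeq promoter table (GRCm38.p6) held 5 of the 9 genes, Ccn1, Ankrd1, Amotl2, Ajuba and Srf, and the 250 bases before each start are shown for the TEAD letters upstream of the YAP/TAZ target genes and the CArG boxes upstream of Srf. The starts are those of RefSeq and differ from the GENCODE spans given above. The Ankrd1 and Amotl2 windows lie inside those spans, and the Srf window overlaps its own. Capitals mark GGAATG, or CATTCC where it lies on the other strand, and in Srf the CArG boxes. Each stretch is written 5′ to 3′ on the gene's own strand.
Ccn1, chr3:145649986-145650235, minus strand: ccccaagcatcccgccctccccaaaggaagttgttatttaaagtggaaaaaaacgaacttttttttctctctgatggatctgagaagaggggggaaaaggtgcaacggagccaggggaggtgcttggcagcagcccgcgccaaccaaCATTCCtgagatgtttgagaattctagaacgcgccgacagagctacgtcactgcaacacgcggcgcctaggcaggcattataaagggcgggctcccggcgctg
Ankrd1, chr19:36119845-36120094, minus strand: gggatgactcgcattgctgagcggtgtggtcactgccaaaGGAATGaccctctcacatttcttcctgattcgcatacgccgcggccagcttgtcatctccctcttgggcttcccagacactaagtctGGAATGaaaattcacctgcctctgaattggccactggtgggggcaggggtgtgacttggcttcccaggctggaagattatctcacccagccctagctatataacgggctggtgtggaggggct
Amotl2, chr9:102717554-102717803, plus strand: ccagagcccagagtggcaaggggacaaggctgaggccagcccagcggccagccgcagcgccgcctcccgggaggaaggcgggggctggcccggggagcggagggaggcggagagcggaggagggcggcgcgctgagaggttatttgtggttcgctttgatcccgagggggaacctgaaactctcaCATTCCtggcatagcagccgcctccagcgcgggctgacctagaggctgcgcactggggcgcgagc
Ajuba, chr14:54577662-54577911, minus strand: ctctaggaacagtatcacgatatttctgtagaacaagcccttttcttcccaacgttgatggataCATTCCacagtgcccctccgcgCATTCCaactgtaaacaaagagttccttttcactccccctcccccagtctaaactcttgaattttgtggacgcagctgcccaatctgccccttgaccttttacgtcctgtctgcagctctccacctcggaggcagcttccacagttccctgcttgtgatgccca
Srf, chr17:46556163-46556412, minus strand: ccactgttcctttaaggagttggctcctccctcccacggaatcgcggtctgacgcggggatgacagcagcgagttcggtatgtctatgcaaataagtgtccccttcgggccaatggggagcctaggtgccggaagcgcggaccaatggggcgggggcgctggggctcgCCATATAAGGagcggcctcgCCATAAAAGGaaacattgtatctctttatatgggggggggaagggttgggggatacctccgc

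GGAATG was present once upstream of Ccn1 and Amotl2 and 2 times upstream of Ankrd1 and Ajuba, and was not found upstream of Srf. On either strand it occurred in 12.6% of all 32851 promoters of this length. Srf itself held 2 CArG boxes, at -82 to -73 and -62 to -53 from its start, a motif found in 1.47% of promoters, and none of the other 4 held one in this window. The AP-1 letters TGANTCA, searched on both strands, were in none of the 5 and in 6.75% of promoters. No matches of different motifs overlapped in these 5 sequences. A match is a description of letters and not a measured binding site.

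Total counts ran from 66540022 to 120554468 per library (median 93075927). Ephb4 itself was at 65.1, 13.2, 35.3 and 40.5 CPM in control bleomycin mice 1 to 4 and at 14.0, 9.53, 10.1 and 4.93 CPM in CKO bleomycin mice, with a log2 fold change of -1.998 ± 0.79 (SE; edgeR adjusted p = 0.220), and at 2.32 to 33.5 CPM in control PBS and 4.01 to 23.6 CPM in CKO PBS mice, so the groups overlapped. The cultures were mixed by their markers. The fibroblast markers (13 of 14 passing the filter) summed to 8237 to 14494 CPM in control bleomycin, 330 to 2622 in CKO bleomycin, 166 to 9830 in control PBS and 234 to 2739 in CKO PBS mice. The macrophage markers (19 of 19) summed to 1446 to 19961, 20099 to 45653, 10753 to 49153 and 19580 to 36971 CPM in the same order, with Lyz2, a lysozyme gene of macrophages, at 863 CPM or more in every library, and no library was at 0 for Col1a1, Pdgfra, Lyz2, Ptprc, Pecam1 or Epcam. Summed CPM of the other lists ranged over the 17 libraries from 35.6 to 2561 for alveolar and airway epithelium (9 of 10 genes passing), from 56.9 to 344 for endothelium (8 of 8), from 13.1 to 993 for mesothelium (2 of 6), from 1.99 to 529 for smooth muscle (6 of 6), from 3.02 to 92.5 for neutrophils (3 of 5) and from 0 to 28.6 for lymphocytes (0 of 6). In bulk RNA, fewer cells of a type and less RNA per cell cannot be told apart. Sex-linked transcripts went against the recorded sex in 3 libraries, control bleomycin mouse 2 and CKO bleomycin mice 1 and 2.

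Among the CCN genes, Ccn4 set the control bleomycin mice apart. Ccn4, a target gene of WNT signalling made by mesenchymal cells, was at 333, 325, 269 and 276 CPM in mice 1 to 4 of the control bleomycin group. It was at 45.05, 0.326, 194 and 0.210 CPM in control PBS mice, at 9.93, 49.3, 3.75 and 0.211 CPM in CKO bleomycin mice and at 4.74, 45.2, 17.8, 2.09 and 3.23 CPM in CKO PBS mice. The 4 control bleomycin mice lay close together and above all 13 others, of which control PBS mouse 3 was the highest. The group mean was 301 ± 32.9 CPM (SD, n = 4), against 15.8 ± 22.7 CPM (SD, n = 4) in CKO bleomycin mice, a log2 fold change of -4.25 (SE 1.81; edgeR adjusted p = 0.228), and the exact permutation test of the mean log2 CPM of 4 against 4 mice gave p = 0.0286, the smallest it can give. Against PBS in Ephb4 control mice the log2 fold change was 2.33 (SE 1.66; edgeR adjusted p = 0.506), with an exact permutation p = 0.0286, and without control PBS mouse 3 it was 4.35. By limma voom with all mice it was 6.14. The 36 permutation tests of the 9 genes in 4 pairwise comparisons are not adjusted.

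Ccn5, a CCN protein that lacks the C-terminal domain of the others, was highest in the same group. Its levels were 16.8, 93.1, 110 and 94.3 CPM in control bleomycin mice 1 to 4, whereas 8 of the other 13 libraries held no Ccn5 count, which allows up to 0.0300 to 0.0509 CPM (3 counts per library). Counts were seen outside that group in control PBS mouse 3 (15.1 CPM), in CKO bleomycin mouse 2 (36.5 CPM), and at 0.239 CPM or less in CKO PBS mouse 3 and CKO bleomycin mice 1 and 4. Control bleomycin mouse 1 was the low one of its group, and CKO bleomycin mouse 2 exceeded it. The log2 fold change of CKO against control after bleomycin was -3.10 (SE 2.31; edgeR adjusted p = 0.422) and the exact permutation p was 0.0571. Without CKO bleomycin mouse 2 the log2 fold change was -10.02. Against PBS in control mice the log2 fold change was 4.38 (SE 2.45; edgeR adjusted p = 0.411) and the exact permutation p was 0.0286, and without control PBS mouse 3 it was 15.88, a fitted value against 3 libraries at 0 that depends on the small count the model adds.

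Both genes moved with the fibroblast markers. Across the 17 libraries Ccn4 had a Pearson r of 0.89 (Spearman rho 0.92) with the fibroblast score, the mean log2 CPM of the fibroblast markers, and of 0.93 (0.95) with the smooth muscle score. Ccn5 had 0.89 (0.80) and 0.86 (0.82). Without the 2 libraries farthest from the gene's median, r with the fibroblast score was 0.86 for Ccn4 and 0.87 for Ccn5. These are descriptions over libraries that share groups, depth and scaling. With the fibroblast score as a covariate, the log2 fold change of CKO against control after bleomycin was -1.59 for Ccn4 and 0.39 for Ccn5, and with the macrophage score -3.36 and -2.64, and the bleomycin difference of Ccn4 in control mice was -0.34 with the fibroblast score. The scores differ between the groups themselves. The columns of the count table fall into 2 sorted runs and the animal numbers into 2 series, 11 and 12, which no label calls a batch. Within the first and second run, CKO minus control after bleomycin in mean log2 CPM was -8.32 and -3.76 for Ccn4 and -10.70 and -4.41 for Ccn5 (2 against 2 mice each). Within series 12 it was -3.76 and -4.97 (2 CKO against 4 control mice), and series 11 held no control bleomycin mouse. Bleomycin minus PBS in control mice was 5.19 and 6.53 for Ccn4 and 7.37 and 10.99 for Ccn5 in the 2 runs. Within series 12, with a single PBS mouse, it was 2.73 and 11.55. The control PBS mice of the second run and of series 12 held no Ccn5 count. CKO bleomycin mice 3 and 4, those of the first run, held 0 and 11 Ccn5 counts. The sizes of these Ccn5 differences therefore depend on the prior count of 2 in log2 CPM.

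**Figure D1:**
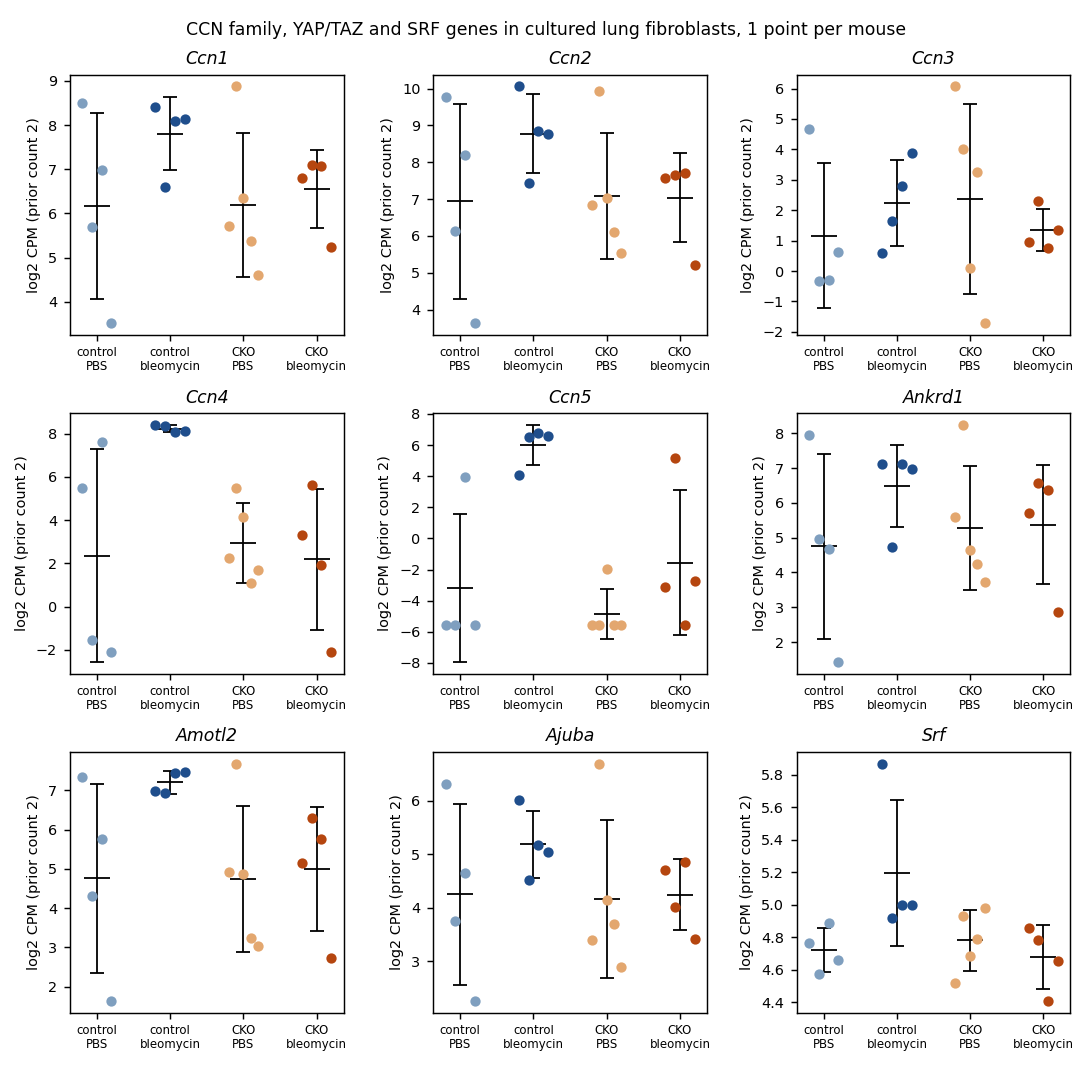
Log2 CPM (prior count of 2) of each gene on the vertical axis against the 4 groups; each point is 1 mouse, and the horizontal mark and bar give the group mean and SD. Ccn4 shows 4 control bleomycin mice above all 13 others, while Ccn1, Ccn2, Ankrd1 and Ajuba overlap in all 4 comparisons.

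Ccn2 and Ccn1, matrix proteins whose genes answer quickly to serum and to mechanical load, had the highest group means of the 9 per kilobase. Single libraries differed from this order. In control PBS mouse 4, Srf was at 8.72 CPM per kilobase, against 5.69 for Ccn1 and 4.33 for Ccn2. Ccn2 was at 1065, 172, 459 and 438 CPM in control bleomycin mice 1 to 4 and at 191, 202, 207 and 37.1 CPM in CKO bleomycin mice. It was at 876, 70.3, 294 and 12.4 CPM in control PBS and at 114, 982, 130, 68.2 and 45.9 CPM in CKO PBS mice. Highest after control bleomycin mouse 1 were CKO PBS mouse 2 and control PBS mouse 1, and the groups overlapped in every comparison. Ccn1 was at 341, 96.3, 272 and 281 CPM in control bleomycin and 112, 136, 134 and 38.0 CPM in CKO bleomycin mice, and ranged from 11.5 to 359 CPM in control PBS and from 24.4 to 469 CPM in CKO PBS mice, with CKO PBS mouse 2 and control PBS mouse 1 the highest of all. CKO against control after bleomycin, the log2 fold change was -1.74 (SE 1.14; edgeR adjusted p = 0.364) for Ccn2 and -1.24 (SE 0.97; edgeR adjusted p = 0.444) for Ccn1, each with an exact permutation p = 0.114. Bleomycin against PBS in control mice, it was 0.77 ± 1.11 (SE) for Ccn2 and 0.86 ± 0.96 for Ccn1, with adjusted p = 0.751 and 0.670. These values depended on single mice: without control bleomycin mouse 1 that of Ccn2 was 0.21, without control PBS mouse 2 or 4 it was 0.47 or 0.37, and without control PBS mouse 1 it was 2.09. That of Ccn1 was 0.47 without control PBS mouse 4 and 1.98 without control PBS mouse 1. The genotype difference of Ccn2 and Ccn1 after bleomycin was -0.14 and -0.16 with the macrophage score as a covariate, and -0.55 and -0.19 with the number series.

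The ratio of the CCN genes to one another within a library does not depend on the scaling of that library. Ccn1 stayed at 0.454 to 1.45 times Ccn2 per kilobase of exon in all 17 libraries, and Ccn1 and Ccn2 correlated with r = 0.98 (rho 0.98, n = 17). Ccn4 stood at 0.161 to 0.968 times Ccn2 in control bleomycin mice and at 0.00301 to 0.1252 times in CKO bleomycin mice, without overlap, while in control PBS and CKO PBS mice it stood at 0.00243 to 0.340 and 0.0158 to 0.0707 times. After bleomycin the mean log2 ratio in control and CKO mice was -1.51 ± 1.08 (SD, n = 4) against -5.84 ± 2.29 (SD, n = 4), a difference of -4.33 with an exact permutation p = 0.0286, one of 16 ratio tests and not adjusted. For Ccn5, Ccn1 and Ccn3 the groups overlapped, with differences of -6.36, 0.49 and 0.85 and exact permutation p = 0.0571, 0.0857 and 0.571. The Ccn5 ratio in CKO bleomycin mice 1, 3 and 4 rests on 10, 0 and 11 counts, to which 0.5 was added. As a share of the 5 CCN genes' summed CPM per kilobase, Ccn4 and Ccn5 made up 9.80 to 27.0% and 1.43 to 22.4% in control bleomycin mice. In CKO bleomycin mice the shares were 0.116 to 5.28% and 0 to 11.3%, and in CKO PBS mice 0.776 to 3.59% and 0 to 0.139%. In control PBS mice they were 0.116 to 16.8% and 0 to 3.78%, with mouse 3 the highest in both. The ratios were computed after the levels had been seen.

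**Figure D2:**
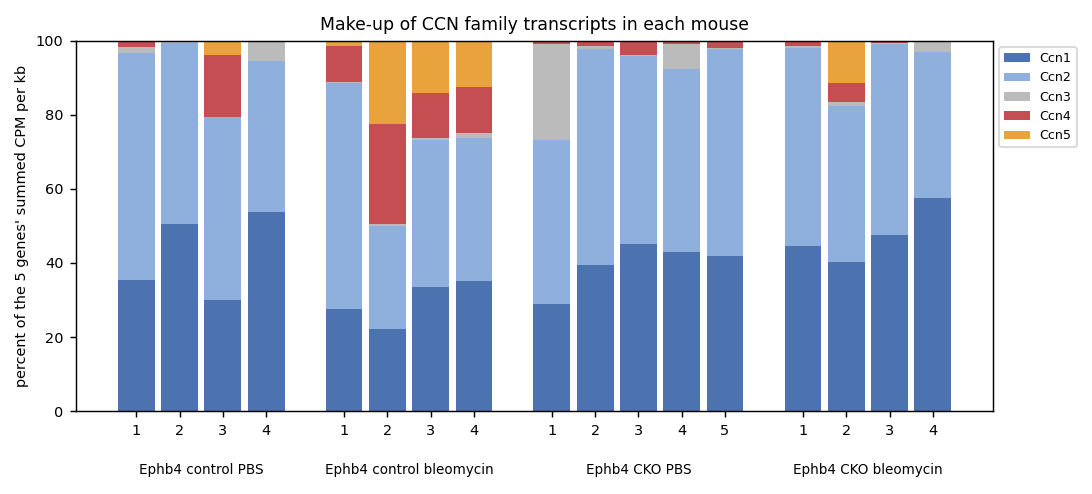
Share of each CCN gene, as a percent of the 5 genes' summed CPM per kilobase of exon, in each of the 17 mice (1 bar each, mouse number within its group below). Ccn1 and Ccn2 fill most of nearly every bar, and Ccn4 takes 9.80 to 27.0% in control bleomycin mice against 5.28% or less in CKO bleomycin mice.

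Ccn3, a CCN gene often found to run opposite to Ccn2, was low, with 25.4, 0.776, 0.787 and 1.52 CPM in control PBS and 67.3, 16.3, 1.06, 9.61 and 0.285 CPM in CKO PBS mice. It was at 1.48, 3.14, 6.94 and 14.6 CPM in control bleomycin and 1.94, 4.96, 1.67 and 2.50 CPM in CKO bleomycin mice. CKO PBS mouse 1 was the highest library, and the groups overlapped in all 4 comparisons. Ccn3 made up 26.0% of the CCN transcripts in that mouse and 6.94% or less in the other 16. Its Pearson r with Ccn2 over all libraries was 0.39 (Spearman rho 0.32), so the 2 did not run opposite here. The log2 fold change of CKO against control after bleomycin was -1.24 (SE 1.37; edgeR adjusted p = 0.593), or -0.48 without control bleomycin mouse 4. That of bleomycin against PBS in CKO mice was -2.77 (SE 1.40; edgeR adjusted p = 1.00). Without CKO PBS mouse 1 the latter was -1.28, and by limma voom with all mice it was -0.83. Ccn6, the remaining gene of the family, which the rule does not include, had no count in any of the 17 libraries, allowing up to 0.0226 to 0.0509 CPM.

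Of the YAP/TAZ target genes outside the family, Amotl2, a scaffold protein that binds and restrains YAP, separated the bleomycin groups. It was at 127, 122, 174 and 176 CPM in control bleomycin mice 1 to 4 and at 35.8, 78.7, 54.7 and 6.67 CPM in CKO bleomycin mice, with the highest CKO mouse below the lowest control mouse. The means were 150 ± 29.3 CPM (SD, n = 4) and 44.0 ± 30.4 CPM (SD, n = 4), with a log2 fold change of -1.77 (SE 1.10; edgeR adjusted p = 0.345) and an exact permutation p = 0.0286. In control PBS mice Amotl2 was at 161, 19.8, 53.8 and 3.10 CPM and in CKO PBS mice at 30.1, 204, 29.1, 9.36 and 8.16 CPM, so that control PBS mouse 1 and CKO PBS mouse 2 reached the control bleomycin range. Bleomycin against PBS in control mice, the log2 fold change was 1.33 (SE 1.09; edgeR adjusted p = 0.558). Within the 2 column runs, CKO minus control after bleomycin in mean log2 CPM of Amotl2 was -2.94 and -1.48, and within series 12 it was -1.47, while bleomycin minus PBS in control mice within series 12, with a single PBS mouse, was -0.12. With the number series as a covariate the genotype difference after bleomycin was -0.59, and without control PBS mouse 1 the bleomycin difference in control mice was 2.55.

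Ankrd1, a stress-responsive protein of muscle and activated fibroblasts, was at 138, 26.6, 140 and 125 CPM in control bleomycin and 51.9, 95.5, 82.0 and 7.27 CPM in CKO bleomycin mice. It was at 246, 31.3, 25.5 and 2.67 CPM in control PBS and 48.1, 301, 25.1, 18.9 and 13.1 CPM in CKO PBS mice. The highest 2 of the 17 libraries were PBS cultures, CKO PBS mouse 2 and control PBS mouse 1. Ajuba, a LIM protein of cell junctions that inhibits the LATS kinases, ranged from 22.8 to 64.9 CPM in control bleomycin, 10.7 to 28.8 CPM in CKO bleomycin, 4.79 to 79.8 CPM in control PBS and 7.40 to 103 CPM in CKO PBS mice, with the same 2 PBS cultures at the top. CKO against control after bleomycin, the log2 fold change was -0.86 (SE 1.19; edgeR adjusted p = 0.672) for Ankrd1 and -0.94 (SE 0.85; edgeR adjusted p = 0.515) for Ajuba, with exact permutation p = 0.371 and 0.0857. Bleomycin against PBS in control mice gave 0.49 ± 1.18 (SE) and 0.34 ± 0.85, with adjusted p = 0.860 and 0.864. With 1 mouse left out at a time these 2 values ranged from 0.090 (without control PBS mouse 4) to 2.44 (without control PBS mouse 1) for Ankrd1 and from -0.015 to 1.43, with the same mice left out, for Ajuba. After bleomycin the genotype difference was -0.49 for Ankrd1 without CKO bleomycin mouse 4 and -0.61 for Ajuba without control bleomycin mouse 1.

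Ccn1, Ccn2, Ankrd1, Amotl2 and Ajuba varied together from mouse to mouse. Over the 17 libraries Pearson's r between pairs of them ran from 0.88 to 0.98 and Spearman's rho from 0.87 to 0.98, and r was 0.81 to 0.97 without the 2 libraries farthest from the median. Their r with the fibroblast score was lower, from 0.41 (Ajuba) to 0.68 (Amotl2), and with the mesothelial score it was 0.53 (Amotl2) to 0.78 (Ajuba). It was 0.60 (Ankrd1) to 0.80 (Amotl2) with the smooth muscle score, 0.16 (Amotl2) to 0.52 (Ajuba) with the alveolar and airway epithelial score, -0.65 (Ccn2) to -0.48 (Ankrd1) with the macrophage score and -0.16 (Ankrd1) to 0.10 (Amotl2) with the endothelial score. With Srf it lay between 0.32 and 0.51. Libraries, groups and scaling are shared by these values. The mesothelial score rests on only 2 of its 6 list genes, Msln among them, as the rest did not pass the filter. The mesothelial and epithelial lists also share Krt19. Control PBS mouse 1 and CKO PBS mouse 2 were high in all 5 genes and had the highest Krt8, an epithelial and mesothelial keratin (867 and 1044 CPM, against 452 CPM or less elsewhere), the highest Msln, a mesothelial marker (402 and 602 CPM), and the highest Epcam (126 and 134 CPM), with Col1a1 at 34.9 and 29.5 CPM. By the mean log2 CPM of the epithelial markers passing the filter, these 2 libraries scored 6.34 and 5.81. CKO bleomycin mouse 3 scored highest, at 6.64. Control bleomycin mouse 1 (6.01) and CKO PBS mouse 3 (5.96) also scored above CKO PBS mouse 2. The part of epithelial or mesothelial cells in the result was not tested. Of control PBS mouse 1 and CKO PBS mouse 2, only the first is in the comparison of bleomycin with PBS in control mice. That mouse was the highest control PBS mouse in all 5 genes, so leaving it out must raise the difference. Without both mice, the log2 fold change of bleomycin against PBS in control mice was 2.09 for Ccn2. It was 1.98 for Ccn1, 2.44 for Ankrd1, 2.55 for Amotl2 and 1.43 for Ajuba. The edgeR adjusted p of these 5 genes was 0.288 or more.

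**Figure D3:**
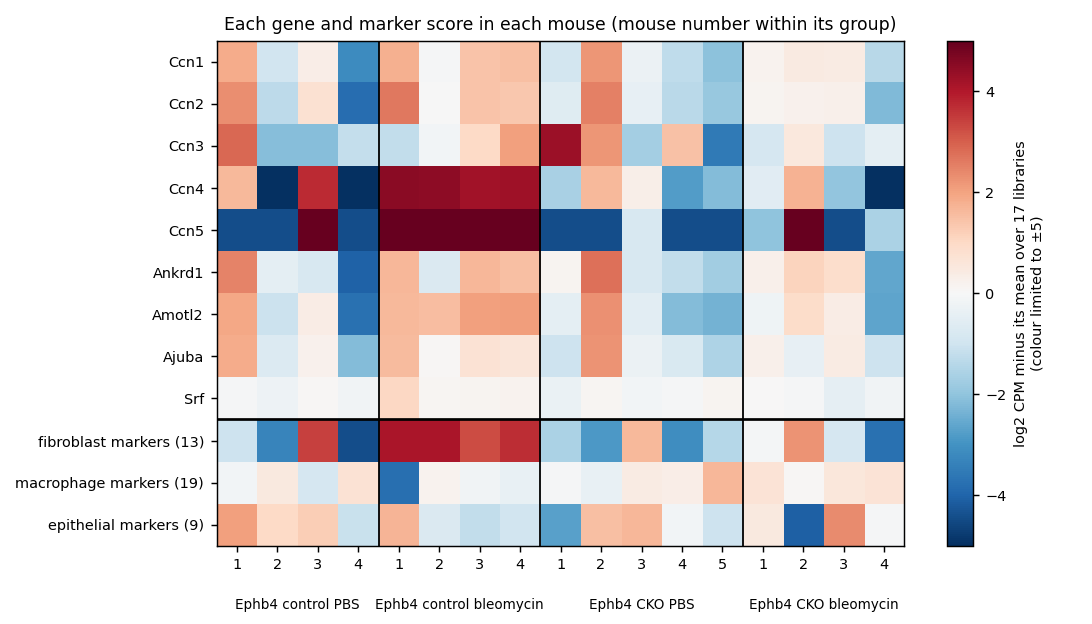
Log2 CPM of each gene, and the mean log2 CPM of 3 marker lists, in each mouse (columns, by group and mouse number), as the difference from its mean over the 17 libraries (colour, limited to ±5). Ccn1, Ccn2, Ankrd1, Amotl2 and Ajuba share a pattern that is high in control PBS mouse 1 and CKO PBS mouse 2, and Ccn4 and Ccn5 follow the fibroblast markers.

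Srf varied least from library to library, with an SD of log2 CPM of 0.32 over the 17 libraries, against 1.19 to 5.23 for the other 8 genes. It was at 58.2, 30.3, 31.9 and 31.9 CPM in control bleomycin mice and at 29.0, 27.5, 21.2 and 25.1 CPM in CKO bleomycin mice, without overlap. It was at 27.2, 23.8, 29.6 and 25.2 CPM in control PBS and at 22.9, 30.5, 25.7, 27.7 and 31.5 CPM in CKO PBS mice. Control bleomycin mouse 1, the library with the lowest macrophage markers, stood above the rest, and the other 3 of its group were between 30.3 and 31.9 CPM, near the highest CKO PBS mouse at 31.5 CPM. The log2 fold change of CKO against control after bleomycin was -0.57 (SE 0.20; edgeR adjusted p = 0.210), and -0.31 without control bleomycin mouse 1. Bleomycin against PBS in control mice it was 0.52 (SE 0.20; edgeR adjusted p = 0.320), and 0.28 without that mouse. Both comparisons gave an exact permutation p = 0.0286 and share the control bleomycin mice. With the macrophage score as a covariate the value of the first was -0.25. Within the 2 column runs the first, as a difference of mean log2 CPM, was -0.43 and -0.61, and within series 12 it was -0.37, and the second was 0.23 and 0.72 within the runs.

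Counted over the 9 genes, all 9 had a negative log2 fold change in CKO against control mice after bleomycin (median -1.24), where 49.3% of the 10481 genes were negative and the median was 0.01. None had an adjusted p under 0.05 by edgeR, DESeq2 or limma voom. DESeq2 called 399 of the 10481 genes (3.81%) in that comparison and gave Ccn4 an adjusted p of 0.0538. By edgeR none of all genes tested was called (0%). At an unadjusted p under 0.05 Ccn4 and Srf passed, 2 of 9, both lower in CKO, against 20.2% of all genes, 9.18% lower and 11% higher. The groups did not overlap for 3 of 9, Ccn4, Amotl2 and Srf, against 23.1% of genes. In bleomycin against PBS in control mice the median was 0.77, against -0.06 over all genes, and 8 of 9 were positive. Adjusted p under 0.05 called 0 of 9 and 0% of genes, the unadjusted threshold Srf alone against 14.3% (7.98% lower and 6.28% higher), and the groups did not overlap for Ccn4, Ccn5 and Srf against 8.91%. With 9 genes, the unadjusted counts lay near the background, and the 5 genes that vary together are not independent counts. Without control bleomycin mouse 2, the groups of 7 of 9 genes did not overlap in CKO against control after bleomycin, against 31.4% of genes. With any other mouse of these 2 groups left out it was 3 or 4 of 9, against 24% to 35.1% of genes. Without the 3 libraries against their recorded sex it was 8 of 9, against 48.5%, with 2 CKO and 3 control mice left.

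**Figure D4:**
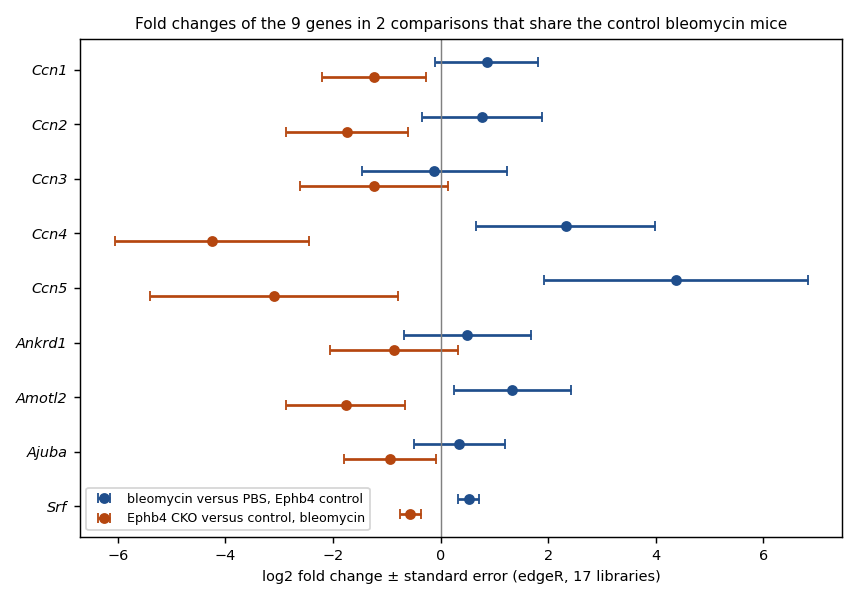
Log2 fold change (points, horizontal axis) with its standard error (bars) of each gene from edgeR over 17 libraries, for bleomycin against PBS in Ephb4 control mice and for CKO against control mice after bleomycin. The first is positive for 8 of 9 genes and the second negative for all 9, and both use the same 4 control bleomycin mice.

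After PBS, CKO and control mice overlapped in all 9 genes. The log2 fold change lay between -0.22 (Ccn2) and 0.09 (Ankrd1) for Ccn1, Ccn2, Ankrd1, Amotl2, Ajuba and Srf, with standard errors of 0.19 for Srf and 0.80 to 1.12 for the others, and no gene's groups were apart (0 of 9, against 0.248% of genes). Ccn4 was at -2.04 ± 1.52 (SE) and Ccn3 at 1.41 ± 1.32, while the mean log2 CPM of Ccn4, which gives each mouse equal weight, was 0.57 higher in CKO mice (exact permutation p = 0.825). Ccn5 was at -6.20 ± 2.58, the only gene of the 9 with an unadjusted p under 0.05 (1.99% of all genes). That value rested on control PBS mouse 3, without which it was 5.28. Without CKO PBS mouse 3, the only CKO PBS mouse with Ccn5 counts, it was -11.52. Either removal left a group with no Ccn5 count, so both values depend on the small count the model adds. Adjusted p was 1.00 for each of the 9 genes (0% of genes called). In CKO mice, bleomycin against PBS gave 0.11 ± 1.501 for Ccn4, -0.75 ± 1.06 for Ccn2, -0.35 ± 1.02 for Amotl2 and -0.11 ± 0.19 for Srf, with 0 of 9 groups apart (0.0859% of genes) and adjusted p of 1.00 throughout (0% called). Ccn5, at 7.47 ± 2.69, was again the only one under an unadjusted 0.05 (0.964% of genes). It was 0.55 without CKO bleomycin mouse 2, and 12.77 without CKO PBS mouse 3, which left the PBS group with no Ccn5 count. The genotype difference after bleomycin minus that after PBS, the interaction, was -0.63 ± 0.27 for Srf, the only one of these genes under an unadjusted 0.05 (3.46% of genes), with no gene called after adjustment (0%), and -2.21 ± 2.22 for Ccn4 and -1.69 ± 1.49 for Amotl2. Without control bleomycin mouse 1 that of Srf was -0.39. With 1 mouse left out that of Ccn4 ranged from -4.21 (without control PBS mouse 3; -3.98 without CKO bleomycin mouse 2) to -1.14 (without CKO PBS mouse 2), and that of Amotl2 from -2.90 (without control PBS mouse 1) to -0.13 (without CKO PBS mouse 2). The smallest two-sided p the exact permutation test can give for 4 against 4 mice is 0.0286.

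The factors that act on these genes were counted by lists written from general knowledge. Of the 8 YAP/TAZ-TEAD factors 7 passed the filter, and all 7 had a negative log2 fold change in CKO against control after bleomycin (median -1.78), with 2 under an unadjusted p of 0.05, against 9.18% of all genes lower, and none under an adjusted one. Wwtr1, which encodes TAZ, was at 87.4 to 108 CPM in control bleomycin and 29.6 to 63.0 CPM in CKO bleomycin mice (-1.12 ± 0.50, SE; edgeR adjusted p = 0.234). Yap1 was at 40.9 to 82.6 and 3.58 to 31.5 CPM (-1.71 ± 0.87; adjusted p = 0.266). The groups of both were apart, as were those of Tead1 (-1.78 ± 1.07), Tead2 (-2.10 ± 0.93), Tead3 (-2.16 ± 1.08) and the coactivator Vgll3 (-2.07 ± 1.39), while the corepressor Vgll4 was at -0.31 ± 0.31 and overlapped, which makes 6 of 7 apart against 23.1% of all genes. In control mice, bleomycin against PBS, the 7 were positive (median 1.26), from 0.04 for Vgll4 to 1.95 for Vgll3. None of them passed an unadjusted 0.05, against 6.28% of all genes higher at that threshold. Of 16 Hippo kinases, adaptors and scaffolds all passed the filter, with a median of -0.21, 2 lower and 2 higher in CKO at an unadjusted 0.05, near the 9.18% and 11% of all genes. The smallest p values were those of Limd1, a LIM protein related to Ajuba (0.62 ± 0.21), and Wtip, another of that family (-1.06 ± 0.45).

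The other YAP/TAZ target genes (17 of 18 passing the filter) had a median of -0.64 in CKO against control after bleomycin, with 3 lower and 1 higher at an unadjusted 0.05, against 9.18% and 11% of all genes, and with 2 of 17 higher after bleomycin in control mice, against 6.28%. Ccdc80, a matrix protein gene, was at -2.90 ± 0.73 (SE; edgeR adjusted p = 0.187) and Crim1 at -1.87 ± 0.65 (adjusted p = 0.210). The SRF cofactors (5 of 6 passing) had values in both directions. Mrtfb was higher in CKO after bleomycin, at 52.6 to 84.3 against 21.3 to 48.7 CPM (0.92 ± 0.31; adjusted p = 0.210), Mrtfa was at 0.00 ± 0.19, and the ternary complex factors were at -0.16 ± 0.17 (Elk1), -0.68 ± 0.38 (Elk3) and -0.19 ± 0.21 (Elk4). Of the 14 cytoskeletal targets of SRF and MRTF, all passing the filter, 13 were negative in CKO after bleomycin (median -1.89) and 5 of them were under an unadjusted 0.05, against 9.18% of all genes lower at that threshold. In control mice, bleomycin against PBS, 13 were positive (median 1.88) and 7 were under it, against 6.28% of genes higher. Zyx, a focal adhesion protein, was at -1.31 ± 0.39 and 1.61 ± 0.39 in the 2 comparisons, and the actin crosslinker Flna at -0.75 ± 0.25 and 0.75 ± 0.25, which share the control bleomycin mice. None had an adjusted p under 0.05. The immediate early targets (7 of 9 passing) had a median of -0.05, with 1 of 7 higher at an unadjusted 0.05, against 11% of all genes. That gene was Egr2, at 1.55 ± 0.43, while Mcl1, at 0.59 ± 0.33, did not pass the threshold. Fibroblast markers had a median of -3.52 (13 of 13 negative), macrophage markers of 1.14 (19 of 19 positive) and smooth muscle markers of -2.30 (6 of 6 negative) in the same comparison. The part of the cell make-up in these list values was not tested.

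The genes outside the 9 with the most similar pattern were taken as the 3 with the highest Pearson's r of log2 CPM over the 17 libraries. They were Igsf9b (0.99), Pawr (0.99) and Traf4 (0.98) for Ccn1 and Traf4 (0.97), Lmcd1 (0.97) and Pawr (0.96) for Ccn2. Ajuba shared Pawr and Traf4 with them, at Pawr (0.98), Fzd6 (0.97) and Traf4 (0.97). For Amotl2 they were Shisa4 (0.98), Ptpn14 (0.98) and Cavin1 (0.97), and for Ankrd1 Plscr2 (0.95), F3 (0.95) and Ptpn14 (0.95). Ccn4 was nearest to Ryk (0.98), Ptprg (0.98) and Cnn3 (0.98) and Ccn5 to Lama1 (0.96), Svep1 (0.95) and Cd248 (0.94). Those of Ccn3 included mitochondrial transcripts, at mt-Nd5 (0.88), Gm43737 (0.87) and mt-Atp6 (0.87). For Srf they were Eif4e2 (0.89), Thoc3 (0.89) and Nono (0.88), and without the 2 libraries farthest from the Srf median these fell to 0.54, 0.58 and 0.69. The values describe libraries that share groups and scaling, and the top of a ranking over 10481 genes is high by selection.

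Between genes, levels were compared per kilobase of exon. In control bleomycin mice the order was Ccn2 (187 ± 132 CPM per kilobase, SD, n = 4), Ccn1 (123 ± 52.3), Ccn4 (54.0 ± 5.90), Ccn5 (40.8 ± 21.8), Ankrd1 (37.2 ± 18.8), Amotl2 (23.8 ± 4.66), Srf (13.2 ± 4.65), Ajuba (10.7 ± 4.95) and Ccn3 (2.28 ± 2.03). Neighbours in that order overlapped except Ajuba and Ccn3. In CKO bleomycin mice Ccn2 (55.7 ± 28.6) and Ccn1 (52.1 ± 22.8) were followed by Ankrd1 (20.5 ± 13.6) and Srf (8.89 ± 1.17), while Ccn5 (4.77 ± 9.46) and Ccn4 (2.84 ± 4.08) came seventh and eighth, and all neighbours overlapped. In both PBS groups Ccn2, Ccn1 and Ankrd1 were the first 3.

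**Figure D5:**
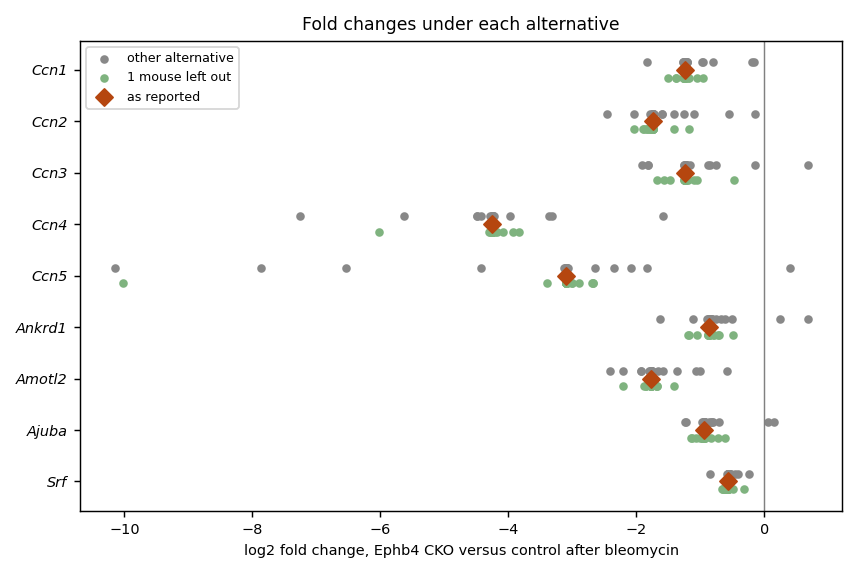
Log2 fold change of each gene in CKO against control mice after bleomycin (horizontal axis), as reported (diamond), with 1 mouse left out (green) and under the other alternatives (grey). Ccn1, Ccn2, Ccn4, Amotl2 and Srf stay below 0 throughout, and Ccn3, Ccn5, Ankrd1 and Ajuba cross 0 under a covariate.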

How the data were processed

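Total RNA of passage 1 lung fibroblast cultures was sequenced from 17 mice (paired 75-base reads, ribosomal RNA removed, stranded). The deposited values are raw read counts per gene, which the authors made by trimming with cutadapt, aligning to GRCm38 with HISAT2 2.1.0 in stranded mode and counting with StringTie. Counts of 66540022 to 120554468 per library were used as deposited, and floors of 3 counts cover counting error only, while SDs and standard errors hold the spread between mice. Genes above 10 CPM in at least 2 libraries were scaled by TMM and tested with the quasi-likelihood test of edgeR 4.0.16 (R 4.3.3), with 1 mean per group over 17 libraries, no covariate and Benjamini-Hochberg adjustment. The study itself used DESeq2 with a batch term, and no label used here gives the batch of a library. Log2 CPM had a prior count of 2, and exact two-sided permutation tests compared its group means. DESeq2 1.42.0, limma voom 3.58.1, other filters and scalings, covariates and leaving out each mouse were alternatives. The genes were taken by symbol, the pathway genes named are all TEAD factors and SRF cofactors and the 2 with the smallest p of each other list. The genes and lists were chosen with earlier results of these data known.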

Additional observations from a re-analysis of the deposited data

Results flagged for a closer look

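Within each group of 4 or 5 mice, the most extreme mouse of each gene was set against the rest by Dixon's ratio, the gap to its nearest neighbour in log2 CPM over the range of the group. Of 36 such groups 7 passed the 95% critical value, where chance alone marks about 1 in 20. Ccn2 was at 37.1 CPM in CKO bleomycin mouse 4, where the others lay at 191 to 207 CPM (ratio 0.953). Ccn1 was at 38.0 CPM in CKO bleomycin mouse 4, where the others lay at 112 to 136 CPM (ratio 0.851). Ccn5 was at 15.1 CPM in control PBS mouse 3, where the others held no count (ratio 1). Ccn5 was at 16.8 CPM in control bleomycin mouse 1, where the others lay at 93.1 to 110 CPM (ratio 0.910). Ccn5 was at 0.239 CPM in CKO PBS mouse 3, where the others held no count (ratio 1). Ankrd1 was at 26.6 CPM in control bleomycin mouse 2, where the others lay at 125 to 140 CPM (ratio 0.934). Srf was at 58.2 CPM in control bleomycin mouse 1, where the others lay at 30.3 to 31.9 CPM (ratio 0.918). CKO bleomycin mouse 4 was low in both Ccn1 and Ccn2, control bleomycin mouse 1 was high in Srf and low in Ccn5, and a ratio of 1 for Ccn5 means that the rest of the group had no count. The cause of these differences was not tested.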

How the results depend on the processing

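None of the 9 genes passed an adjusted p of 0.05 under any alternative run in any comparison, so that count stayed at 0 of 9. The signs of Ccn1, Ccn2, Ccn4, Amotl2 and Srf in CKO against control after bleomycin held under every alternative run, with Ccn4 between -7.25 and -1.59, Amotl2 between -2.42 and -0.59, Srf between -0.85 and -0.25, Ccn2 between -2.47 and -0.14 and Ccn1 between -1.84 and -0.16. The values nearest 0 came with the fibroblast score for Ccn4, the number series for Amotl2 and the macrophage score for the other 3. Other than with single mice left out, 77 values changed sign, and the cause was not tested. With DESeq2 and the column runs as a covariate, the changed values were 1.54 (Ccn3) in bleomycin against PBS in control mice, -0.12 (Ankrd1) in CKO against control after PBS, -0.0082 (Ccn4) and 0.12 (Ankrd1) in bleomycin against PBS in CKO mice. With the column runs as a covariate, the changed values were 1.51 (Ccn3) in bleomycin against PBS in control mice, -0.13 (Ankrd1) in CKO against control after PBS, -0.018 (Ccn4) and 0.12 (Ankrd1) in bleomycin against PBS in CKO mice. With the epithelial score as a covariate, the changed values were 0.12 (Ccn2), 0.22 (Ccn1), 0.080 (Amotl2) and 0.32 (Ajuba) in CKO against control after PBS, 0.25 (Ccn1), -0.15 (Ccn4), 0.012 (Ankrd1) and 0.067 (Amotl2) in bleomycin against PBS in CKO mice. With the fibroblast score, the changed values were -0.34 (Ccn4) in bleomycin against PBS in control mice, 0.11 (Ccn2), 0.17 (Ccn1), 1.25 (Ccn4), 0.28 (Amotl2) and 0.014 (Ajuba) in CKO against control after PBS, 0.39 (Ccn5) in CKO against control after bleomycin, -3.19 (Ccn4) in bleomycin against PBS in CKO mice. With limma voom, the changed values were 1.18 (Ccn3) in bleomycin against PBS in control mice, 0.15 (Ccn2), 0.015 (Ccn1) and 0.57 (Ccn4) in CKO against control after PBS, 0.33 (Ccn1), -0.065 (Ccn4), 0.10 (Ankrd1), 0.33 (Amotl2) and 0.23 (Ajuba) in bleomycin against PBS in CKO mice, -6.16 (Ccn5) in the interaction. With the macrophage score, the changed values were -0.10 (Ccn2), -0.12 (Ankrd1) and -0.27 (Ajuba) in bleomycin against PBS in control mice, 0.076 (Ccn1) and 0.059 (Ajuba) in CKO against control after PBS, 0.24 (Ankrd1) and 0.15 (Ajuba) in CKO against control after bleomycin, 0.084 (Ccn1), 0.033 (Ankrd1) and 0.069 (Amotl2) in bleomycin against PBS in CKO mice, 0.16 (Ankrd1) and 0.090 (Ajuba) in the interaction. With the number series, the changed values were -0.24 (Ccn2), -0.070 (Ccn1), -0.49 (Ankrd1) and -0.44 (Ajuba) in bleomycin against PBS in control mice, -0.12 (Ankrd1) in CKO against control after PBS, 0.68 (Ccn3), 0.67 (Ankrd1) and 0.058 (Ajuba) in CKO against control after bleomycin, 0.044 (Ccn1), -0.63 (Ccn4), 0.31 (Ankrd1) and 0.15 (Amotl2) in bleomycin against PBS in CKO mice, 0.11 (Ccn1), 0.80 (Ankrd1) and 0.27 (Ajuba) in the interaction. With recorded sex, the changed values were 0.12 (Ccn3) in bleomycin against PBS in control mice, -0.26 (Ankrd1) in CKO against control after PBS, 0.22 (Ccn1), 0.42 (Ankrd1) and 0.49 (Amotl2) in bleomycin against PBS in CKO mice. Without the 2 PBS cultures highest in Krt8 and Msln, the changed values were 2.67 (Ccn3) in bleomycin against PBS in control mice, 0.83 (Ccn2), 1.07 (Ccn1), 1.17 (Ankrd1), 1.20 (Amotl2) and 0.75 (Ajuba) in bleomycin against PBS in CKO mice. Without the 3 libraries against their recorded sex, the changed values were 0.13 (Ccn3) in bleomycin against PBS in control mice, 0.0016 (Ccn1) and 0.0066 (Ajuba) in CKO against control after PBS, -2.94 (Ccn4) in bleomycin against PBS in CKO mice, -3.93 (Ccn5) in the interaction. With 1 mouse left out at a time, log2 fold changes that changed sign ranged in bleomycin against PBS in control mice from -0.88 to 2.67 (Ccn3) and from -0.015 to 1.43 (Ajuba), and in CKO against control after PBS from -1.81 to 1.09 (Ccn2), from -1.46 to 1.09 (Ccn1), from -0.059 to 4.20 (Ccn3), from -11.52 to 5.28 (Ccn5), from -1.54 to 2.04 (Ankrd1), from -1.63 to 1.13 (Amotl2) and from -1.35 to 1.06 (Ajuba), and in bleomycin against PBS in CKO mice from -1.02 to 0.83 (Ccn2), from -0.62 to 1.07 (Ccn1), from -1.66 to 1.18 (Ccn4), from -0.79 to 1.17 (Ankrd1), from -0.79 to 1.20 (Amotl2) and from -0.81 to 0.75 (Ajuba), and in the interaction from -2.84 to 0.067 (Ccn2), from -2.33 to 0.22 (Ccn1), from -8.34 to 8.41 (Ccn5), from -2.90 to 0.68 (Ankrd1) and from -2.002 to 0.41 (Ajuba). The log2 ratio of Ccn3 to Ccn2 within a library, CKO minus control after bleomycin, ranged from -0.12 to 1.40 in the same way. The log2 ratio of Ccn4 to Ccn2 in CKO against control after bleomycin ranged from -5.27 to -3.48 with 1 mouse left out and was -5.56 without the 3 libraries against their recorded sex, and at those sizes the exact permutation test cannot pass 0.05. The number of the 9 genes whose groups did not overlap in that comparison was 8 without those 3 libraries and 7 without control bleomycin mouse 2. It was 3 as reported, and 3 or 4 with any other mouse of the 2 groups left out. DESeq2 called 166, 1, 399, 1 and 0 of the 10481 genes in bleomycin against PBS in control mice, CKO against control after PBS, CKO against control after bleomycin, bleomycin against PBS in CKO mice and the interaction, where edgeR and limma voom called 0.

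No paired analysis was possible because the replicate numbers were given in accession order and pair no mice. Fits of only the groups compared gave no value for Ccn5 in 2 comparisons or Ccn3 in 1, and none for the interaction. DESeq2 with the column runs gave no adjusted p for Ajuba, Ccn1, Ccn2 and Ccn4. The column runs with DESeq2, number series 12 alone, the epithelial score, the removal of the 2 PBS cultures, the overlap counts and the ratio alternatives were chosen after the data had been seen. Depth did not limit the 9 genes other than Ccn5. The spread between cultures was wide, with a biological coefficient of variation of 0.557 over all genes.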
